A study of Homo sapiens with 8 samples.

Results

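The 8 genes described here encode the subunits of the condensin complexes and were chosen by name, with earlier results of these data known. They are SMC2 and SMC4, which both complexes share, NCAPD2, NCAPG and NCAPH of condensin I, and NCAPD3, NCAPG2 and NCAPH2 of condensin II. All 8 had a row in the expression table, out of 17649 genes tested. RNA-Seq had been performed on MDA-MB-231, an established line of estrogen receptor-negative human breast cancer cells, with 4 control libraries and 4 libraries from cells exposed to 1 µM carboxymethyllysine (CML) for 48 hours. CML is an advanced glycation end product that arises in proteins by glycation of lysine residues. The titles of the exposed libraries read NCML and their treatment label reads CML. According to the supplementary methods, cells of both groups grew in low-glucose medium and the controls received PBS as vehicle. The comparison asks how exposure to CML changed transcript levels. All libraries come from 1 cell line, and nothing in the labels says that they came from separate cultures, so the p-values below measure only the spread between these libraries.

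Condensins are ring-shaped ATPases that fold chromatin into loops. In each complex SMC2 and SMC4 form a V-shaped pair of arms, a kleisin subunit closes the ring by bridging their ATPase heads, and a pair of HEAT-repeat subunits binds the kleisin and DNA. Condensin II resides in the nucleus through interphase and begins to compact chromosomes in prophase, whereas condensin I is largely cytoplasmic until the nuclear envelope breaks down and then shortens the chromosome arms. Transcripts of many mitotic genes, condensin subunits among them, are more abundant in dividing cells.

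The authors deposited CPM values, which are reads per gene scaled to a common library size. The steps between low values gave an estimated depth of 16558950 to 17729419 reads per control library and 16161634 to 18954447 reads per CML library, so that 1 read was worth 0.0535 to 0.0622 CPM. The markers VIM, CD44, AXL and CAV1, which are high in MDA-MB-231 cells, lay above 136 CPM in all 8 libraries, and the progesterone receptor gene PGR did not exceed 0.114 CPM. SPARC, also listed as a high marker, ranged from 0.114 to 6.03 CPM, and so was not high in these libraries. ERBB2 (44.1 to 54.4 CPM), EPCAM (12.7 to 16.3 CPM) and GATA3 (3.47 to 5.60 CPM), listed as low or absent, were detected. Among markers of other cell types, DCN did not exceed 0.0605 CPM and PTPRC did not exceed 0.65 CPM, while COL1A1 ranged from 9.40 to 13.3 CPM, LUM from 0.605 to 1.71 CPM and PECAM1 from 2.36 to 3.84 CPM. None of these measured markers passed the test between groups. ESR1, CD3E and CDH5 had no row under those symbols in the expression table, so no level is given for them. Libraries numbered 4 stood apart from the rest of their group, and control replicate 1 deviated in the opposite direction, as described below.

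SMC4, NCAPG and NCAPH were higher in CML-exposed cells, each with all 4 CML libraries above all 4 controls. The rise was 17.5% for SMC4, 28.6% for NCAPG and 24.9% for NCAPH in mean CPM. SMC2, NCAPD2, NCAPD3, NCAPG2 and NCAPH2 did not pass the test, with means 8.17% for NCAPD2 to 11.01% for SMC2 above control. Groups were compared with limma on log2(CPM + 1) over all genes, and a gene was called at a Benjamini-Hochberg adjusted p under 0.3, the false discovery rate that the study used for this experiment. With that threshold, 3 of the 8 subunits were called, all higher, against 0.895% of all genes called in either direction and 0.674% called higher. The subunits were chosen with earlier results of these data known, so their difference from such shares is not independent evidence. SMC4 and NCAPG each lost the call in 7 of the 8 fits that left out 1 library, SMC4 also with libraries centred on their median (adjusted p = 0.331), and NCAPH with a replicate block (adjusted p = 0.301), while NCAPH kept it in all 8 fits with 1 library left out. The same 3 of 8 had groups that did not overlap, against 2.5% of all genes with non-overlapping groups and a higher level with CML. All 8 log2 fold changes were above 0, as were 58.8% of those of genes averaging 1 CPM or more, and their median was 0.15 against 0.01 over all genes tested. At an adjusted p under 0.05 limma called 0 genes in this fit, although 1352 genes, and 6 of the 8 subunits, had an unadjusted p under that value. That count depended on the fit, since 36 genes passed 0.05 when the test was limited to genes averaging 1 CPM or more (NCAPG at 0.0211 and NCAPH at 0.0423) and 165 passed with GC content and length removed (NCAPG at 0.000346, SMC4 at 0.00171 and NCAPH at 0.00779). In bulk RNA, more dividing cells and more of a transcript per cell cannot be told apart.

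**Figure D1:**
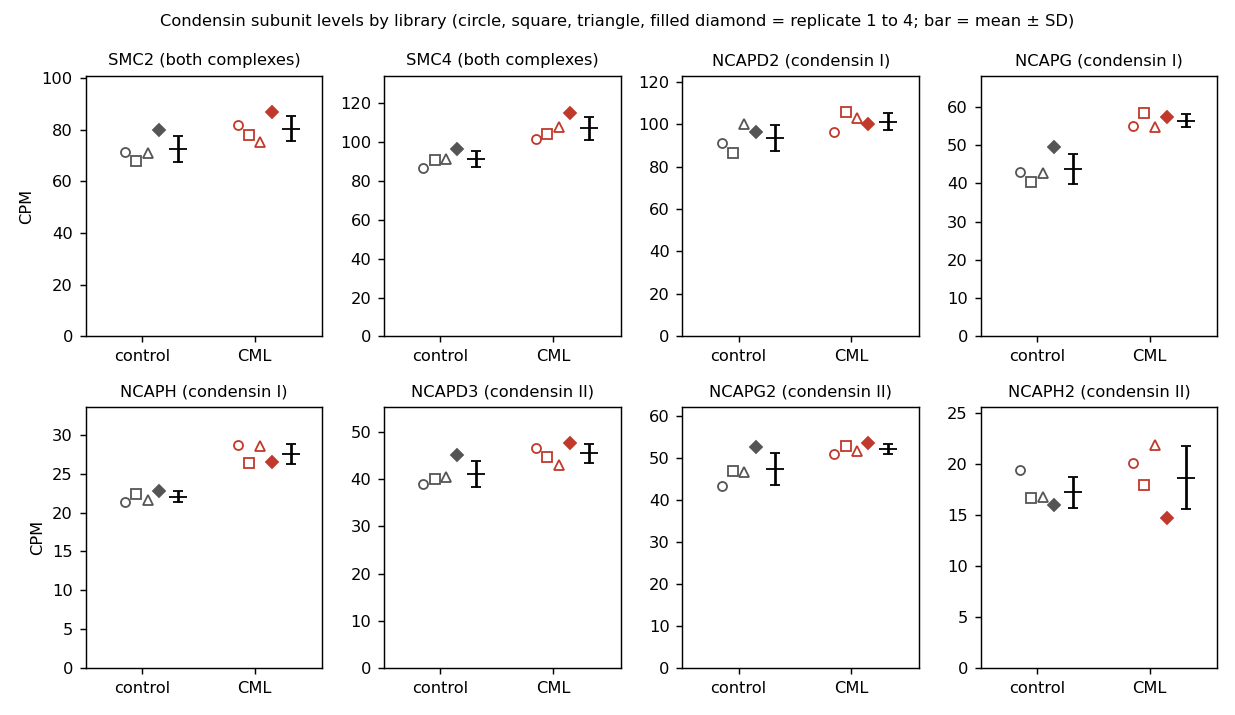
CPM of the 8 condensin subunits in each library (vertical axes, starting at 0) for control (grey) and CML-exposed cells (red), with a symbol for each replicate number, replicate 4 filled, and a bar for the mean ± SD of 4 libraries. Control and CML libraries do not overlap for SMC4, NCAPG and NCAPH, and overlap for the other 5 subunits.

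The promoters of the subunits are shown because these genes were measured together and because 3 of them were called higher. RefSeq promoter windows (GRCh38.p14, 250 bases before to 50 after each transcript start) were found for 7 of the 8 genes, 10 windows in all. Windows were searched on both strands for the cell cycle homology region (CHR, TTTGAA), the CCAAT box (CCAAT) and the E2F letters (TTCCCGC or TTGGCGC, or else TTCGCGC or TTGCCGC), and no hit of one motif overlapped a hit of another. CHR letters occurred in 6 of the 10 windows, in 6 genes, against 15.2% of 35116 promoters of the same length. CCAAT occurred in 3 windows against 34.6% of all promoters, and E2F letters occurred in 3 windows against 13% of all promoters. The 250 bases upstream of the start are given below, with motif letters in capitals. They are for the 3 called genes and for NCAPD2, which did not pass the test and holds 4 CCAAT boxes. The windows are chr4:17810729-17810978 for NCAPG, chr2:96335516-96335765 for NCAPH, chr3:160399400-160399649 for the first of the SMC4 windows and chr12:6493852-6494101 for NCAPD2, all on the plus strand and written 5′ to 3′.
NCAPG: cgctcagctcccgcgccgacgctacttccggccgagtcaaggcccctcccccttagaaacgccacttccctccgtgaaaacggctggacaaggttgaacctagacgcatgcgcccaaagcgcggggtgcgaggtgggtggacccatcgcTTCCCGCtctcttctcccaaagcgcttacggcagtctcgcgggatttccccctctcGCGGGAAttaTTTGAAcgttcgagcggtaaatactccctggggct
NCAPH: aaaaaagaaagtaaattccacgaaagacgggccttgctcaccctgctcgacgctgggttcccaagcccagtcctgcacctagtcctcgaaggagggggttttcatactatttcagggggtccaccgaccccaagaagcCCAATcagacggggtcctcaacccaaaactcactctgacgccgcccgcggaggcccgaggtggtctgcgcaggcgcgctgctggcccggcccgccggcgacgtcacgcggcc
SMC4: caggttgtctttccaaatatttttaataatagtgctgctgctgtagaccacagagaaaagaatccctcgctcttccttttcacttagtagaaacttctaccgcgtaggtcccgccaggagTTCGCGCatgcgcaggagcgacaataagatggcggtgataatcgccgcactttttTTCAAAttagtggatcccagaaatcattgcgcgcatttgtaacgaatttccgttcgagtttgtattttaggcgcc
NCAPD2: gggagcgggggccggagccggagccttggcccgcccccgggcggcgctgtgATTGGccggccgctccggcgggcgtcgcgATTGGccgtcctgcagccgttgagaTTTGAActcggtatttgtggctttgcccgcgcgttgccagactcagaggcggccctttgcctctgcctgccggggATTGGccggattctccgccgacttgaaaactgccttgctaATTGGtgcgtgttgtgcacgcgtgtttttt
In NCAPG, a CHR hit begins 35 bases before the start and E2F letters begin 101 and 45 bases before it. NCAPH holds a CCAAT box and neither of the other motifs in its window, so that no motif searched occurs in all 3 called genes. CHR and E2F letters occur in both SMC4 and NCAPG. The called set depended on the fit, as given above, so no contrast with the other subunits is drawn from it. A match is a string of letters and was not tested for binding.

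SMC4, at chr3:160399650-160434953 (GRCh38.p14, plus strand), encodes the larger of the paired ATPase arms. Its level was 86.5, 90.8, 91.1 and 96.4 CPM in control replicates 1 to 4 and 102, 104, 108 and 115 CPM in the CML replicates. Every CML library lay above the highest control, replicate 4. Means were 91.2 ± 4.06 CPM (SD, n = 4) and 107 ± 5.90 CPM (SD, n = 4), with a log2 fold change of 0.23 (SE 0.047) and a limma adjusted p of 0.263. Its partner SMC2, at chr9:104088263-104141419 on the plus strand, was at 71.2, 67.8, 71.1 and 79.7 CPM in the controls and 81.6, 78.0, 75.4 and 86.7 CPM with CML. CML replicates 2 and 3 lay below control replicate 4, so the groups overlapped. The SMC2 log2 fold change was 0.15 (SE 0.061, adjusted p = 0.626 by limma), with a 95% interval of 0.01 to 0.29. Summed, the paired SMC transcripts came to 164 ± 8.51 CPM in controls and 188 ± 9.56 CPM with CML (SD, n = 4).

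NCAPG is the HEAT-repeat subunit of condensin I that contacts DNA together with the kleisin, and lies at chr4:17810979-17844865 on the plus strand. Its level was 43.1, 40.2, 42.7 and 49.4 CPM in the controls and 55.1, 58.3, 54.8 and 57.4 CPM with CML. Control replicate 4 was the highest control and still lay below every CML library. The log2 fold change was 0.36 (SE 0.061, adjusted p = 0.179 by limma), the largest of the 8 subunits in size. NCAPH, the condensin I kleisin, lies at chr2:96335766-96377091 on the plus strand and was at 21.4, 22.5, 21.6 and 22.8 CPM in the controls and 28.7, 26.4, 28.6 and 26.5 CPM with CML. Its control libraries had the smallest spread of any subunit, a coefficient of variation of 3.04%. Its log2 fold change was 0.31 (SE 0.039), and its limma adjusted p of 0.0889 was the lowest of the 8 in this fit. With a replicate block it rose to 0.301, above SMC4 (0.212) and NCAPG (0.2997). With 357 to 495 estimated reads per library, NCAPH had a counting error of 4.49% to 5.29%. Its spread in the controls, 3.04%, was below that error, and its spread with CML was 4.57%. The SE of 0.039 was thus drawn from a control spread smaller than counting alone would give. It was 0.059 when the test was limited to genes averaging 1 CPM or more, and 0.055 with GC content and length removed.

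NCAPD2, the other HEAT-repeat subunit of condensin I, lies at chr12:6494102-6531955 on the plus strand. It was measured at 91.2, 86.4, 100.1 and 96.4 CPM in the controls and 96.2, 106, 103 and 99.9 CPM with CML. The groups overlapped, the lowest CML library being under the 2 highest controls. The log2 fold change was 0.11 (SE 0.051, adjusted p = 0.683 by limma), with a 95% interval of -0.01 to 0.23. The 3 subunits found in condensin I and not in condensin II summed to 159 ± 8.76 CPM in controls and 185 ± 4.45 CPM with CML (SD, n = 4), 16.1% more.

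The condensin II subunits NCAPD3, NCAPG2 and NCAPH2 did not pass the test. NCAPD3, a HEAT-repeat subunit at chr11:134150113-134225461 on the minus strand, was at 38.9, 40.0, 40.6 and 45.1 CPM in the controls and 46.7, 44.7, 43.1 and 47.6 CPM with CML. Only control replicate 4 reached into the CML range, and the log2 fold change was 0.14 (SE 0.052, adjusted p = 0.559 by limma). NCAPG2, the counterpart of NCAPG at chr7:158631169-158704804 on the minus strand, was at 43.3, 46.8, 46.7 and 52.7 CPM in the controls. With CML it was at 50.8, 52.8, 51.7 and 53.5 CPM, and again control replicate 4 was the 1 control library within the CML range. Its log2 fold change was 0.14 (SE 0.056, adjusted p = 0.619 by limma). NCAPH2, the condensin II kleisin at chr22:50508224-50524780, was at 19.4, 16.7, 16.8 and 16.0 CPM in the controls and 20.1, 17.9, 21.9 and 14.7 CPM with CML. CML replicate 4 was the lowest of all 8 libraries and replicate 3 the highest, and the log2 fold change of 0.10 had an SE of 0.123 (adjusted p = 0.949 by limma). The coefficient of variation of NCAPH2 within the CML group, 16.6%, was above its counting error of up to 6.51%. Together the 3 condensin II subunits summed to 106 ± 5.43 CPM in controls and 116 ± 0.984 CPM with CML (SD, n = 4), 10.1% more.

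**Figure D2:**
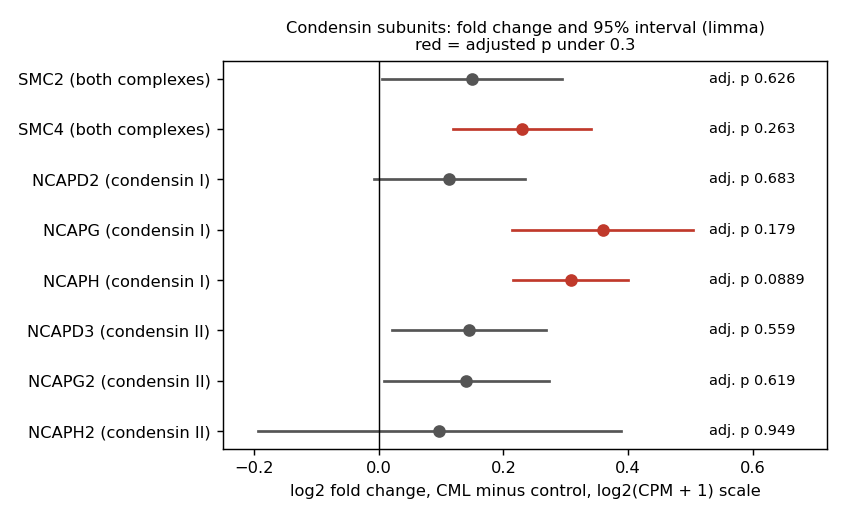
Log2 fold change (CML minus control, on the log2(CPM + 1) scale) of each condensin subunit with its 95% interval from limma, with the adjusted p beside it. The 3 subunits in red, SMC4, NCAPG and NCAPH, have an adjusted p under 0.3, and the intervals of NCAPD2 and NCAPH2 include 0.

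Each condensin I subunit was set against its condensin II counterpart as a ratio of CPM within the same library, a comparison added after the data were seen. NCAPG over NCAPG2 was 0.994, 0.859, 0.915 and 0.938 in the controls and 1.08, 1.10, 1.06 and 1.07 with CML, without overlap. The exact 2-sided permutation test over the 70 labellings of the libraries gave p = 0.0286, the smallest it can give, and 0.0857 after adjustment over the 3 pairs, which is the lowest adjusted value open to a pair that alone is fully separated, so this test could not pass 0.05 for it. NCAPH over NCAPH2 was 1.29 ± 0.138 in controls and 1.50 ± 0.213 with CML, and the groups overlapped (exact permutation p = 0.114, adjusted 0.171, n = 4). NCAPD2 over NCAPD3 was 2.28 ± 0.155 and 2.23 ± 0.173 (exact permutation p = 0.6, adjusted 0.6, n = 4).

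**Figure D3:**
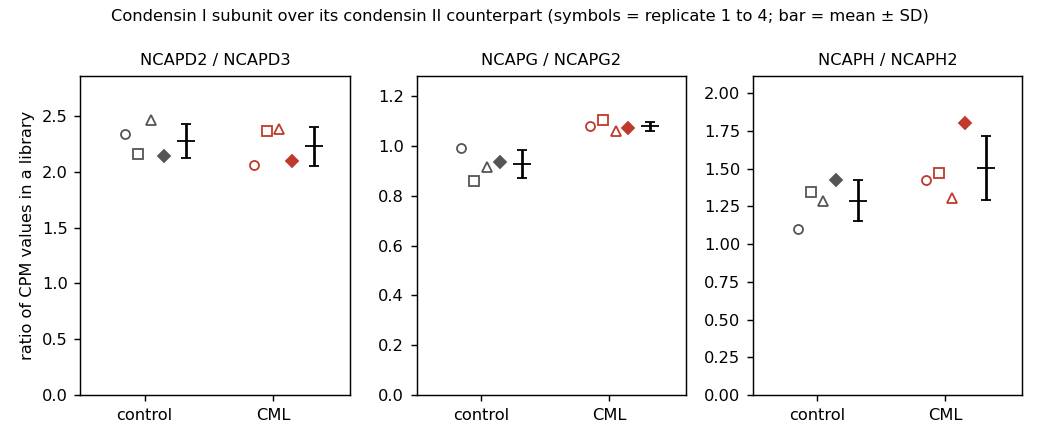
Ratio of the CPM of a condensin I subunit to that of its condensin II counterpart in each library (vertical axes, starting at 0), with symbols for replicates 1 to 4 and bars for the mean ± SD. For NCAPG over NCAPG2 the 4 CML libraries, at 1.06 to 1.10, lie above the 4 controls, and the groups overlap for the other pairs.

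Levels of different subunits were compared per length, as control CPM divided by the length in kilobases of 1 reference transcript per gene. NCAPD2 (19.4 ± 1.24 CPM per kb) and SMC4 (17.8 ± 0.793) were highest, with overlapping ranges (SD, n = 4). SMC2 (12.2 ± 0.856), NCAPG2 (11.7 ± 0.961) and NCAPG (9.56 ± 0.855) followed, each overlapping the next. NCAPD3 (5.58 ± 0.368) and NCAPH2 (5.16 ± 0.453) overlapped as well, and NCAPH (3.66 ± 0.111) was lowest and apart from them. Both kleisins thus stood among the 3 lowest levels. The lengths are those of single reference transcripts, and which isoforms the cells used was not analysed.

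The replicate numbered 4 was the highest control library for 6 subunits, all except NCAPD2 and NCAPH2, and the lowest for NCAPH2. Control replicate 1 was the lowest control library for SMC4, NCAPH, NCAPD3 and NCAPG2 and the highest for NCAPH2. Among the CML libraries, replicate 4 was highest for SMC2, SMC4, NCAPD3 and NCAPG2 and lowest for NCAPH2. Over genes averaging 1 CPM or more, the deviation from the gene means followed the GC content of the transcript in both libraries numbered 4. The Spearman rho was -0.531 in control replicate 4 and -0.527 in CML replicate 4. It was 0.502 in control replicate 1 and 0.130 to 0.222 in the others. The subunit transcripts span a wide range of GC content, from 36.6% for SMC4 and 37.4% for SMC2 to 61.3% for NCAPH2, around a median of 47.9% for expressed genes. SMC2 lay 13.8% above the mean of the other 3 controls in control replicate 4 and 10.7% above the mean of the other 3 CML libraries in CML replicate 4. For NCAPH2 these differences were -9.27% and -26.4%. The other subunits did not follow the order of GC content in control replicate 4. SMC4, with the lowest GC content, lay 7.74% above the other controls there. NCAPG (17.7%), NCAPG2 (15.5%) and NCAPD3 (13.2%) lay further above, and NCAPH (4.47%) and NCAPD2 (4.17%) less far. The part of GC content in any one subunit's spread was not tested.

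**Figure D4:**
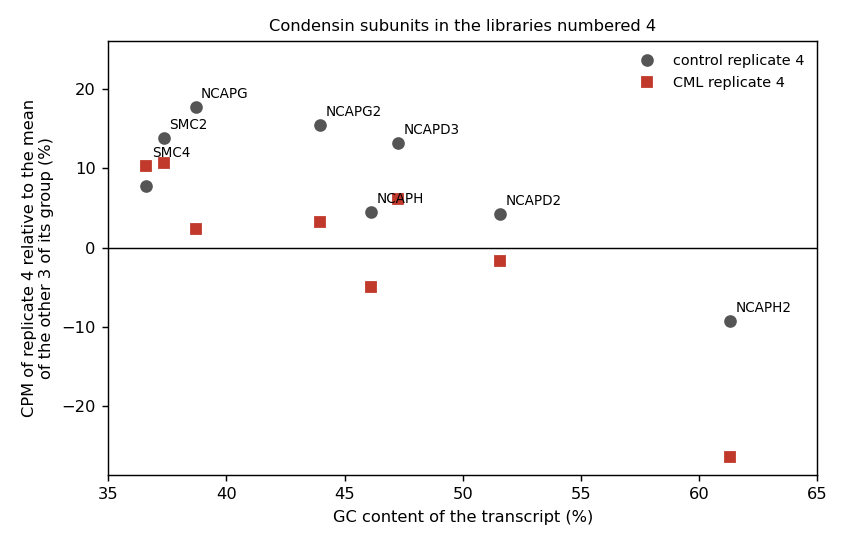
Level of each condensin subunit in replicate 4 relative to the mean of the other 3 libraries of its group (vertical axis, percent) against the GC content of its transcript (horizontal axis, percent), for control (grey circles) and CML (red squares). The AT-rich transcripts SMC2 and SMC4 lie above 0 in both groups, and NCAPH2, at 61.3% GC, lies below 0 in both.

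Without control replicate 4, 6 of the 8 subunits were called, against 3.04% of all genes called higher, and the groups of 6 did not overlap, against 6.95% of all genes with non-overlapping groups and a higher level in that setting. NCAPD2 and NCAPH2 were those not called. When the dependence of each library on GC content and length was removed, 7 of the 8 were called higher, against 3.79% of the 12928 genes in that fit. All 8 log2 fold changes were smaller after the removal, and ran from 0.09 for NCAPH2 to 0.33 for NCAPG. That of SMC2 went from 0.149 to 0.121. The SE was smaller as well, 0.038 against 0.061 for SMC2, except for NCAPH (0.055 against 0.039). In each of the 7 fits that left out a library other than control replicate 4, 1 subunit was called, and this was NCAPH. Calls were also fewer over all 17649 genes in these fits. From 16 (without CML replicate 2) to 77 (without CML replicate 4) were called higher, against 119 with all libraries.

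Within groups, the subunits varied together to different degrees. Over the 8 libraries, deviations from the group mean correlated at 0.92 between SMC2 and NCAPD3. NCAPH2 had a mean correlation of -0.37 with the other 7 subunits, down to -0.74 with SMC4, and a positive one with NCAPH alone, 0.44. These are descriptions over 8 libraries that share the GC dependence given above. The genes whose profile over the 8 libraries was most like the mean profile of the subunits, among 10761 genes averaging 5 CPM or more, were HLTF (Pearson r 0.984), PYGL (0.975), ANXA2 (0.973), CCNB1 (0.971) and FUNDC1 (0.971). Since the subunit profile itself is higher with CML, higher levels with CML in these 5 genes follow from the way they were picked, and nothing is read from them.

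Several subunit genes share their locus with other genes. Whether reads were counted by strand is not given in the sources used here, so reads of opposite-strand neighbours cannot be told apart from those of the subunits where they overlap. LCORL, which overlaps NCAPG, was at 31.3 ± 1.96 CPM in controls and 34.0 ± 2.11 CPM with CML (limma adjusted p = 0.749). IFT80 (24.7 against 24.1 CPM) and TRIM59 (5.40 against 5.59 CPM) overlap SMC4, MRPL51 (54.5 against 54.0 CPM) overlaps NCAPD2, VPS26B (55.2 against 54.5 CPM) overlaps NCAPD3 and SCO2 (4.65 against 4.65 CPM) overlaps NCAPH2. JAM3, which also overlaps NCAPD3, is listed at 0 in all 8 libraries. None of these neighbours was called, and their log2 fold changes lay between -0.04 and 0.11.

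Genes of the other SMC complexes were described for comparison, from a list also chosen with earlier results of these data known. Of 26 such genes, 2 were called, both higher, 25 had a log2 fold change above 0, and the median was 0.07, beside 0.674% called higher and a median of 0.01 over all genes and 58.8% above 0 among genes averaging 1 CPM or more. The 2 were CDCA5, which encodes sororin, the protector of cohesin on replicated DNA, and PTTG1, which encodes securin, the inhibitor of separase. CDCA5 went from 34.4 ± 1.37 to 42.2 ± 2.54 CPM (log2 fold change 0.29, SE 0.049, limma adjusted p = 0.179), and PTTG1 went from 34.3 ± 1.53 to 39.5 ± 1.03 CPM (0.20, SE 0.035, adjusted p = 0.189). With 1 library left out, CDCA5 kept its call in 3 of 8 fits and PTTG1 in 2 of 8, and PTTG1 also lost it with median centring and without both libraries numbered 4. None of the core cohesin subunits SMC1A, SMC3, RAD21, STAG1 and STAG2 passed the test. Of the 8 genes of the SMC5/6 complex, which acts in DNA repair, 0 were called by limma and 0 had an unadjusted p under 0.05. Over all 17649 genes, limma called 0.895% in either direction, and 1352 had an unadjusted p under 0.05. Counts of 0 in lists this short are therefore not read as a result. Whether condensin genes differed from these genes was not tested.

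Of 23 partners and regulators of condensin, 4 were called, all higher, beside 0.674% called higher over all genes. The median log2 fold change was 0.07, against 0.01 over all genes. This list too was chosen with earlier results of these data known, so its count is not independent evidence. Among 9 kinases and cyclins, CCNA2 (cyclin A2) went from 32.2 ± 1.94 to 41.6 ± 1.40 CPM (log2 fold change 0.36, limma adjusted p = 0.0897). CCNB1, the partner of CDK1, went from 67.6 ± 2.83 to 82.0 ± 2.47 CPM (0.28, adjusted p = 0.0889). Among 4 proteins of the chromosome axis or surface, MKI67, the proliferation marker that coats mitotic chromosomes, went from 124 ± 5.60 to 152 ± 3.21 CPM (0.30, adjusted p = 0.0856). TOP2A, the topoisomerase that removes DNA tangles alongside condensin, went from 151 ± 10.5 to 179 ± 7.13 CPM (0.25, adjusted p = 0.293). TOP2A lost its call with a pseudocount of 0.1 (0.307), with median centring (0.324), without the variance trend (0.307) and in 7 of the 8 fits with 1 library left out (limma adjusted p up to 0.558), and CCNB1 lost its call in 1 of those 8 (0.306). In 7 of the 23 the CML libraries all lay above the controls, against 2.5% of all genes. In AKAP8, an anchor for condensin on chromatin, the CML libraries all lay below the controls, as in 225 of all 17649 genes. AKAP8 was at 44.9 ± 3.26 CPM in controls and 40.1 ± 1.57 CPM with CML, and did not pass the test (log2 fold change -0.16, limma adjusted p = 0.544). None of the 4 phosphatases and none of the 6 inhibitors, binding or loading factors was called. Since 0.895% of all genes were called in either direction, nothing is read from this. MKI67, CCNB1 and CCNA2 are markers of cycling cells, and their part in the levels of SMC4, NCAPG and NCAPH was not tested.

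**Figure D5:**
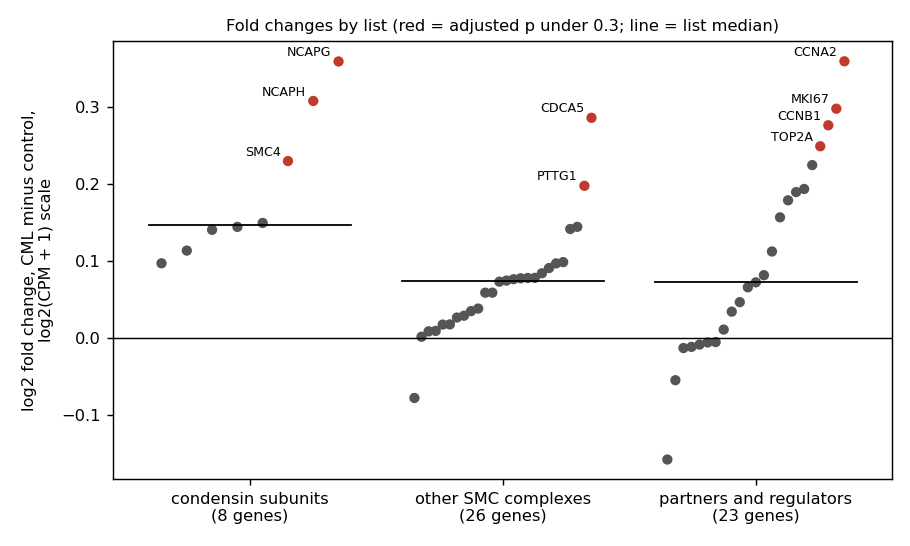
Log2 fold changes (vertical axis, CML minus control, log2(CPM + 1) scale) of the 8 condensin subunits, 26 genes of other SMC complexes and 23 partners and regulators, ordered by size within each list, with a line at the list median. Genes in red have an adjusted p under 0.3, and none of these lies below 0.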

How the data were processed

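RNA-Seq had been performed on 4 control and 4 CML-exposed libraries of MDA-MB-231 cells, grouped by their titles. Expression was taken from the CPM that the authors deposited. The submitters' processing notes name edgeR and the genome build hg38. The labels name both NextSeq and HiSeq instruments, and the supplementary methods name a HiSeq for the CML experiment. The aligner, counting tool and strand setting for this experiment are not given in the sources used here. Rows were averaged by symbol, which left 17649 genes (32 symbols had more than 1 row). Depth was estimated from the steps between low values, of which 82.2% to 83.4% per library were whole reads within 0.05. This is short of nearly all, so no count test was run. Counting errors cover sampling only.

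The test between groups was limma (version 3.58.1, under R 4.3.3, with a variance trend, a pseudocount of 1 and Benjamini-Hochberg over all genes). Ratios used an exact permutation test in scipy 1.17.1. GC content and length came from 1 GENCODE transcript per gene, and 99.1% of genes averaging 1 CPM or more had both. Their effect was removed by lowess (span 0.3). The members, lists and tests were chosen with earlier results of these data known. Named genes were all members, called genes of the other lists (at most 5 each), the 5 genes most like the subunits and genes overlapping a subunit. AKAP8 and the core cohesin subunits were named, and the paralog ratios and the fit without both libraries numbered 4 were added, after the data were seen. Alternatives were another pseudocount, filter, scaling and variance model, rows kept separate, a replicate block, GC and length removal, and each library left out.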

Additional observations from a re-analysis of the deposited data

How the results depend on the processing

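All 8 subunits kept a positive log2 fold change under all 18 alternatives, and NCAPH2 was called under none of them. The number called among the subunits ranged from 1 to 6 with 1 library left out (6 without control replicate 4), and was 2 with median centring (SMC4 lost its call), 7 with GC content and length removed, 7 with that removal and a replicate block, and 5 without both libraries numbered 4. Subunits with non-overlapping groups numbered 3 to 6 with 1 library left out (3.47% to 6.95% of all genes, higher with CML), 5 with GC and length removed (4.1%) and 6 without both libraries numbered 4 (9.42%), against 3 (2.5%) with all libraries. Over all genes, 158 were called, against 73 with median centring, 835 with GC and length removed, 877 with that removal and the block, 321 without both libraries numbered 4, and 20 (without CML replicate 2) to 690 (without control replicate 4) with 1 library left out. Of these calls 119 were higher and 39 lower, against 46 and 27 with median centring, 90 and 54 with quantile normalization, and 490 and 345 with GC and length removed. Genes of other SMC complexes called numbered 1 with median centring and 0 to 3 with 1 library left out. Partners and regulators called numbered 9 with GC and length removed, 10 with that removal and the block, 7 without both libraries numbered 4, and 2 to 8 with 1 library left out. Why these counts differ was not tested. Leaving 1 library out also leaves fewer samples.

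Same-numbered libraries correlated at 0.199, -0.0303, -0.0645 and 0.334 in their deviations, against -0.304 to 0.113 between libraries with different numbers. The values of replicates 1 and 4 lay above that range, and those of replicates 2 and 3 lay within it. The labels do not say whether the numbers pair the libraries. The main fit did not pair them, and a replicate block was run as an alternative. With the replicate block, limma called 189 genes and 2 subunits, and NCAPH fell just past the threshold (adjusted p = 0.301). The log2 difference of NCAPG over NCAPG2 was 0.19 to 0.26 with 1 library left out. A count test was not run, since 82.2% to 83.4% of low values, and not nearly all, were whole reads. No group of libraries had an outlying subunit value by Dixon's criterion. At a depth of 236 to 359 estimated reads per library, NCAPH2 is the subunit with the largest counting error.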
